A study of Mus musculus with 2 samples.

Results

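Mir140 and Mir455 are the miRNA genes most closely tied to cartilage, and their levels were read from small RNA libraries of the mouse embryonic face. Both were found by their Ensembl identifiers in the same-strand counts of each library, so they are 2 of the 1973 miRNA genes counted. The tissue was the facial prominence of B6NCrl mouse embryos at day 13.5, healthy and of both sexes pooled, and RNA under 30 bases was sequenced. The labels name 2 biological replicates, replicate 1 and replicate 2, which form a single group with no treatment and carry the same donor label. The number of embryos behind each is not given, so p-values measure only the difference between these samples. Replicate 1 held 4562135 same-strand counts on miRNA genes and replicate 2 held 5771249, which was 44.1% of the reads of each. Reads with several places in the genome (30.7% and 31.0%) belong to no gene in the files and stayed out.

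A miRNA is cut from a hairpin in a longer transcript, is loaded into an Argonaute protein, and silences messenger RNAs that pair with its seed, bases 2 to 8 counted from its 5′ end. Mir140 is a marker of chondrocytes in mouse and zebrafish; mice without it have a short skeleton, and in zebrafish it restrains the Pdgfra signal that guides palate cells. Mir455 is also a chondrocyte miRNA, and mice without it lose articular cartilage. Each lies inside a gene that SOX9, the master transcription factor of cartilage, is known to activate in chondrocytes. Wwp2 encodes a ubiquitin ligase and Col27a1 encodes a fibrillar collagen of cartilage. Part of the facial skeleton begins as cartilage in the mesenchyme of the prominences.

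The sequences at hand are shown because they bear on what was counted and on whether a read could come from another gene. They are RefSeq entries on GRCm38.p6, the genome behind mm10, written 5′ to 3′ with the seed in capitals. Both members matched the table.
miR-140-3p: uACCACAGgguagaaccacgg
miR-455-5p: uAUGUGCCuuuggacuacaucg
miR-455-3p: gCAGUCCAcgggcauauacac
The Mir140 hairpin, with miR-140-3p in capitals, is given next. The other arm is named miR-140-5p.
Mir140 hairpin: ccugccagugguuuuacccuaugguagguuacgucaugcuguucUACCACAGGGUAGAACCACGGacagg

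No mature sequence above occurred in the entry of any other gene of the table, so none of these 3 miRNAs was shared within it. The entries held no mature miR-140-5p and no Mir455 hairpin. They also gave no shared sequence for Mir1a-1 and Mir133a-1, which are encoded at several loci, so this search can miss a copy. The 3 seeds differ from each other. The seed ACCACAG of miR-140-3p also stands in miR-497b, and the seed AUGUGCC of miR-455-5p also stands in miR-5129-3p; CAGUCCA stood in no other entry. Mir497b had 1 same-strand count in replicate 1 and 4 in replicate 2, and Mir5129 had 2 and 3, all near the 3 counts that a count of 0 allows (0.658 CPM in replicate 1 and 0.520 CPM in replicate 2). Neither reached the 10 counts in both libraries asked for testing. The genes found to share one of these 3 seeds were thus close to undetected by uniquely placed reads; the seed of miR-140-5p was not searched. The counts are per gene, so the reads of the 5p and 3p arms of a hairpin cannot be told apart here.

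Mir140 (ENSMUSG00000065439.1) occupies chromosome 8 between 107551244 and 107551313 of GRCm38, plus strand, a gene of 70 bases in which miR-140-3p takes bases 45 to 65. Its host Wwp2 runs on the same strand from 107436365 to 107558595. In the principal transcript of Wwp2, Mir140 sits in intron 16, which is 2141 bases long, at 1108 bases after the exon before it and 963 bases before the exon that follows. Of 11 annotated Wwp2 transcripts, 4 span it; it is intronic in 3 of them and lies within the only exon of the other, a transcript annotated as a retained intron.

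Mir455 (ENSMUSG00000070102.1) occupies chromosome 4 between 63256851 and 63256932 of GRCm38, plus strand, a gene of 82 bases with miR-455-5p at bases 17 to 38 and miR-455-3p at bases 54 to 74. Col27a1 runs on the same strand from 63214004 to 63334991. In its principal transcript, Mir455 sits in intron 10, which is 2318 bases long, at 2109 bases after the exon before it and only 127 bases before the exon that follows. Of 7 annotated Col27a1 transcripts, 4 span Mir455, and in these 4 it is intronic. Both members share a setting beyond having a host: each is the only miRNA gene of the annotation within its host and reads in the host's direction. The nearest other annotated miRNA gene lies 290 kb from Mir140 and 4376 kb from Mir455, so neither belongs to a cluster. The host messenger RNAs were not measured in these libraries of short RNA, and neither was SOX9.

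**Figure D1:**
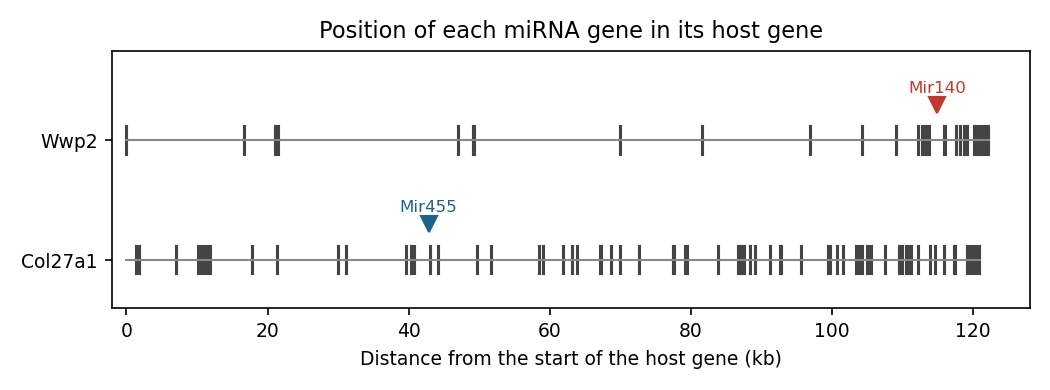
Position of Mir140 in Wwp2 (top) and Mir455 in Col27a1 (bottom), in kb from the start of the host gene. Black boxes are exons of the principal transcript, widened where too narrow to see, and triangles mark the miRNA genes; Mir140 lies 115 kb from the start of Wwp2, near its end, and Mir455 lies 42.8 kb from the start of Col27a1.

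By uniquely placed reads, Mir140 was among the most abundant miRNA genes of the face. Mir455 was present at a level about an order of magnitude lower. Genes with a mature sequence encoded at several loci may be counted too low, so ranks and shares hold for uniquely placed reads only. Mir140 had 84869 counts in replicate 1 and 131067 in replicate 2. In CPM, counts per 1000000 same-strand counts on miRNA genes, that is 18603 in replicate 1 and 22710 in replicate 2. The mean was 20657 ± 2904 CPM (SD, n = 2), which placed Mir140 at rank 14 of all genes; it was at rank 16 in replicate 1 and 14 in replicate 2. As a share of counts it took 1.86% in replicate 1 (95% Wilson interval 1.85 to 1.87) and 2.27% in replicate 2 (2.26 to 2.28). The intervals lie apart, and they cover counting error only, because reads amplified without molecular identifiers are not independent molecules.

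Mir455 had 8435 counts in replicate 1 and 8943 in replicate 2, or 1849 and 1550 CPM. Its mean of 1699 ± 212 CPM (SD, n = 2) placed it at rank 80, with rank 76 in replicate 1 and rank 85 in replicate 2. Its share was 0.185% in replicate 1 (95% Wilson interval 0.181 to 0.189) and 0.155% in replicate 2 (0.152 to 0.158). Mir455 was thus higher in replicate 1 and Mir140 higher in replicate 2, and the ranges of the 2 genes were far apart. Of the 360 tested genes, those with at least 10 counts in both libraries, 96.1% lay below Mir140 and 77.8% below Mir455 by mean CPM; the median tested gene stood at 113 CPM. In bulk tissue, more cells of a type and more RNA per cell cannot be told apart.

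**Figure D2:**
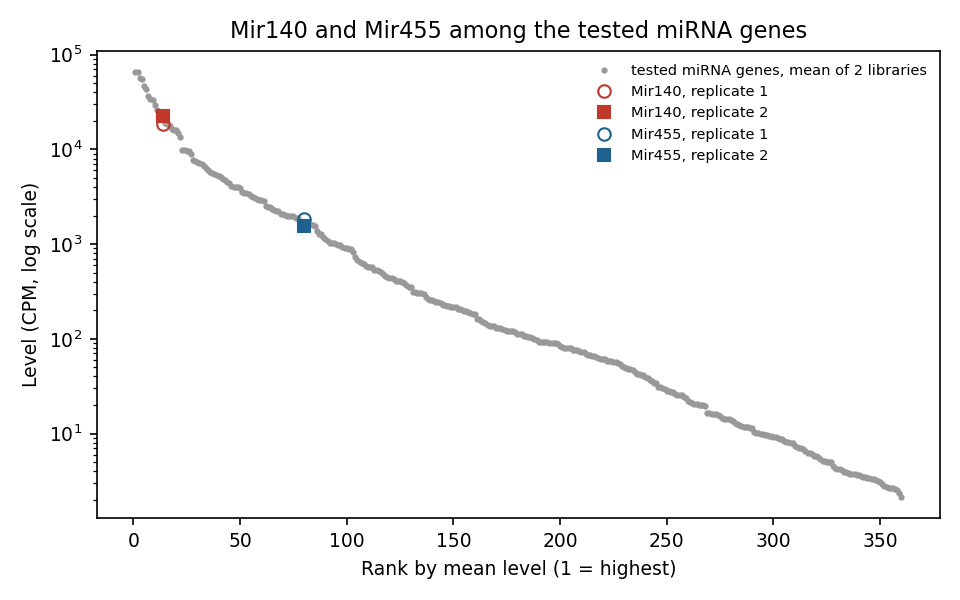
Level of each tested miRNA gene (CPM, log scale) against its rank by mean level. Grey points are means of the 2 libraries, open circles replicate 1 and filled squares replicate 2; Mir140 sits at rank 14 with 18603 and 22710 CPM and Mir455 at rank 80 with 1849 and 1550 CPM.

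Mir140 thus stood among genes of mesenchyme, vessels and epithelium in the order of levels. Next above it by mean were Mir214, of mesenchyme, at 25707 ± 1581 CPM, Mir126a, of endothelium, at 24841 ± 1371 CPM, and Mir99b at 24434 ± 1106 CPM (SD, n = 2 each). The lowest of these 6 library values exceeded the higher value of Mir140, so the ranges did not overlap. Next below were Mir203, of epidermis, at 19190 ± 4787 CPM, Mir23a at 18290 ± 1194 CPM and Mir143, of mesenchyme and smooth muscle, at 17775 ± 2059 CPM. All 3 had ranges that overlapped that of Mir140, so its place relative to them is not fixed by these libraries. In replicate 1, Mir203 (22575 CPM) and Mir23a (19134 CPM) stood above Mir140, and in replicate 2 both stood below it (15805 and 17446 CPM).

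Around Mir455 the order was looser still. Mirlet7f-2 (1871 ± 46.3 CPM), Mir181b-2 (1721 ± 276 CPM) and Mir301 (1703 ± 83.2 CPM) came next above, and Mir139 (1680 ± 59.8 CPM), Mir381 (1623 ± 11.3 CPM) and Mir425 (1622 ± 354 CPM) next below (SD, n = 2 each). The ranges of all 6 overlapped that of Mir455. Mirlet7f-2 and Mir181b-2 belong to families with mature sequences encoded at several loci, whose multiply placed reads were not counted.

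**Figure D3:**
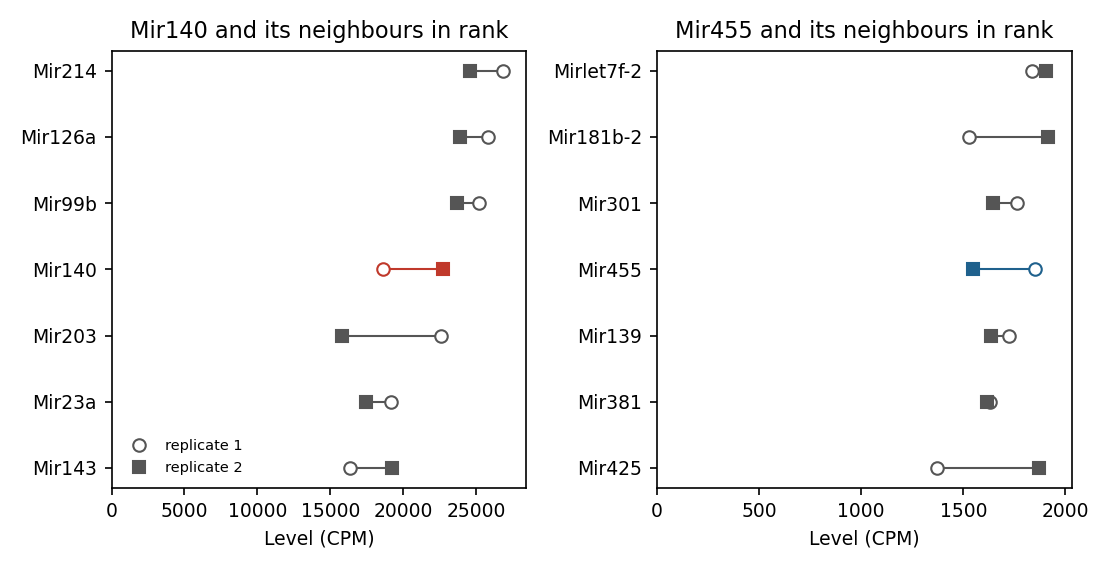
Level (CPM) of Mir140 (left) and Mir455 (right) with the 3 genes next above and next below each by mean; open circles are replicate 1, filled squares replicate 2. The range of Mir140 stays below the 3 genes above it and overlaps the 3 below it, and the range of Mir455 overlaps all 6 of its neighbours.

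The genes whose levels over the 2 libraries lay nearest to Mir140, by distance in log2 CPM, were Mir143 (0.31), Mir23a (0.38) and Mir99b (0.44). Of these, Mir143 alone was also higher in replicate 2, with 16319 CPM in replicate 1 against 19231 CPM in replicate 2. Nearest to Mir455 were Mir301 (0.11), Mir139 (0.13) and Mir381 (0.19). With 2 libraries such a distance describes level and one difference only.

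The balance between the cartilage miRNAs leaned strongly to Mir140, and it was not the same in the libraries. Mir140 exceeded Mir455 by 10.1 to 1 in replicate 1 (exact 95% interval 9.84 to 10.3) and by 14.7 to 1 in replicate 2 (14.35 to 14.97), a mean ratio of 12.4 ± 3.25 (SD, n = 2). Mir140 supplied 91.0% of the counts of the pair in replicate 1 and 93.6% in replicate 2. Divided by hairpin length, the ratio was 11.8 in replicate 1 and 17.2 in replicate 2, although reads of RNA under 30 bases need not scale with hairpin length. Which part of the hairpin each read covers is not given. These ratios need no scaling between libraries. Both genes together held 2.05% of counts in replicate 1 and 2.43% in replicate 2.

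Between the libraries the members moved in opposite directions. After TMM scaling, the log2 ratio of replicate 2 to replicate 1 was 0.31 for Mir140 (counting interval 0.30 to 0.32; 1.24-fold), with an adjusted p below 1e-300 in the exact binomial test. For Mir455 it was -0.23 (counting interval -0.27 to -0.19), which is 1.17-fold higher in replicate 1 (adjusted p = 3.29e-25, exact binomial test with Benjamini-Hochberg adjustment over 360 genes). The ratio of Mir140 to Mir455 was 1.46-fold higher in replicate 2, a log2 change of 0.54 (0.50 to 0.59; two-sided Fisher's exact test, p = 3.43e-124). All 3 tests compare these libraries, set against counting error alone, and not conditions.

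Against the whole table, differences of this kind were common. In the same test 55.3% of the 360 genes passed, 30.3% higher in replicate 2 like Mir140 and 25.0% higher in replicate 1 like Mir455. Among the 94 genes with a mean of at least 1000 CPM, where counting error is smallest, 89.4% passed, 50.0% higher in replicate 2 and 39.4% higher in replicate 1, so passing sets neither member apart. Of all tested genes, most below 1000 CPM, 38.6% had a larger absolute log2 ratio than Mir140 and 51.1% a larger one than Mir455. The spread between libraries beyond counting error was a coefficient of variation of 18.0% (edgeR common dispersion over all tested genes). It corresponds to an SD of 0.37 for a log2 ratio and of 0.52 for the difference of a pair of log2 ratios. The members' log2 ratios of 0.31 and -0.23 lie within 1 such SD of 0, and the change of 0.54 in their ratio is close to 1 SD. Among genes of at least 1000 CPM, as both members are, the median absolute log2 ratio was 0.15. Both members lay above it, so their differences were not small for that level.

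**Figure D4:**
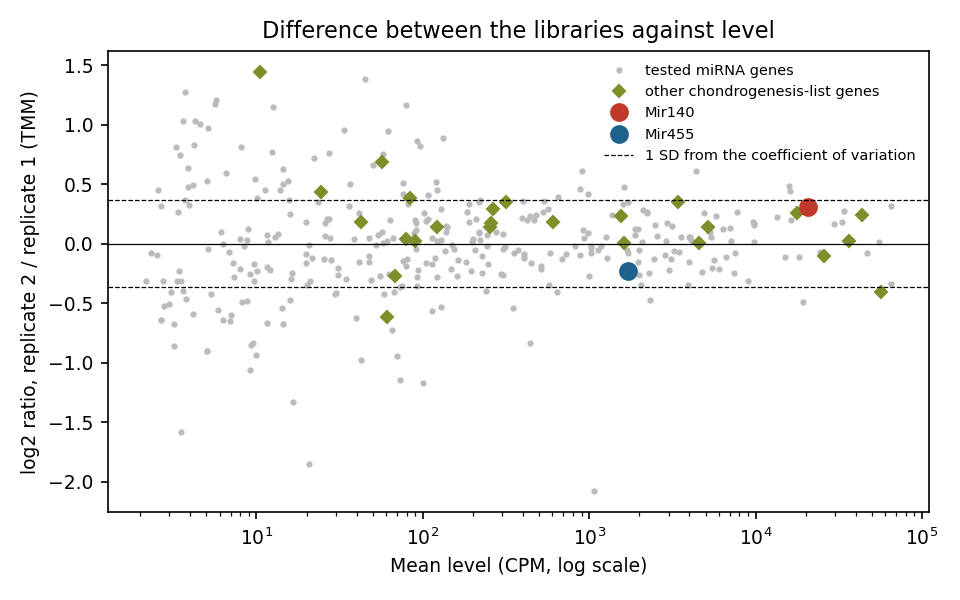
Log2 ratio of replicate 2 to replicate 1 after TMM scaling against mean level (CPM, log scale) for the tested genes; diamonds are the other genes of the chondrogenesis list. Dashed lines mark 1 SD (0.37) computed from the coefficient of variation between libraries; Mir140 at 0.31 and Mir455 at -0.23 both lie between them.

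Other miRNAs with a published role in chondrocytes or cartilage were listed beside the members. Of 31 genes on this chondrogenesis list, 30 were matched by name in the files and 27 of those were tested. Mir18a was missed because it is named Mir18 there, and it is not part of the list counts that follow. Mir18 had a mean of 5419 CPM and was higher in replicate 2 (log2 ratio 0.05, adjusted p = 6.77e-05, exact binomial test). Among the 25 tested genes other than Mir140 and Mir455, 15 were higher in replicate 2, 4 were higher in replicate 1 and 6 did not pass the test, beside 30.3% and 25.0% of all tested genes in those directions (50.0% and 39.4% at 1000 CPM or more), with a median log2 ratio of 0.17 against 0.02 for all tested genes. With plain totals in place of TMM, 13 were higher in replicate 2, and Mir17, at 0.02 with TMM, turned to just below 0 without passing. Mir455 was thus 1 of 5 listed genes past the test in the direction of replicate 1, and Mir140 1 of 16 in the direction of replicate 2. Mir140 ranked behind 4 of the other genes matched by name and Mir455 behind 8 apart from Mir140.

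Ahead of Mir140 were Mir23b at 56985 ± 11827 CPM, Mir322 at 43792 ± 4597 CPM, Mir17 at 36397 ± 32.0 CPM and Mir214, and Mir143 followed it (SD, n = 2 each). These genes are also expressed outside cartilage. Mir26a-1 had the largest log2 ratio (1.44), from 26 counts in replicate 1 and 88 in replicate 2, followed by Mir193b (0.68) and Mir199a-1 (0.44). At the other end stood Mir146 (-0.61), an inflammation-related miRNA, Mir23b (-0.40) and Mir495 (-0.27). Mir26a-1 and Mir199a-1 share a mature sequence with another gene of the table, so their unique counts are uncertain.

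**Figure D5:**
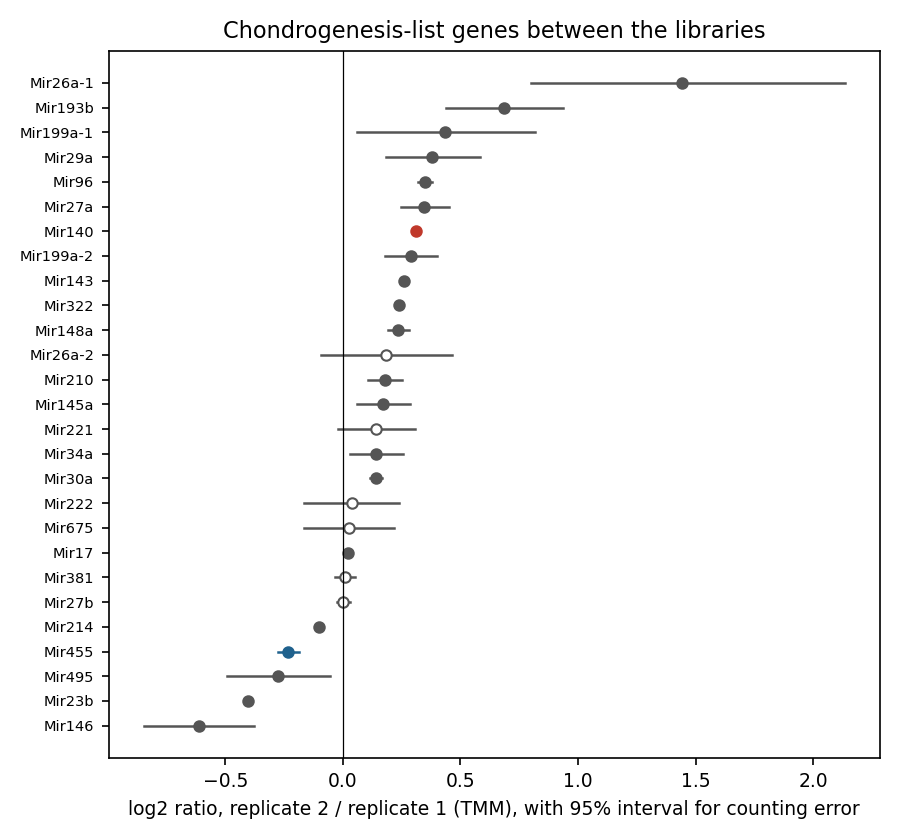
Log2 ratio of replicate 2 to replicate 1 (TMM) for the 27 genes of the chondrogenesis list that were matched by name and tested. Lines give the 95% interval of counting error. Filled points passed the test, open points did not. Mir140 (red) lies at 0.31 among the genes higher in replicate 2 and Mir455 (blue) at -0.23 among the 5 higher in replicate 1.

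Marker miRNAs of other tissues give the make-up beside which these differences stand. The mesenchyme list held 4.56% of counts in replicate 1 and 4.67% in replicate 2, led by Mir214. Of its 6 genes 5 were higher in replicate 2, against 30.3% of all tested genes and 50.0% at 1000 CPM or more. Mir214 (log2 ratio -0.10) was higher in replicate 1. The median log2 ratio of the list was 0.27, beside 0.31 for Mir140, while the log2 ratio of its summed counts was 0.06 (TMM). In this list 3 genes, Mir199a-1, Mir199a-2 and Mir199b, share a mature sequence with another gene of the table. Their unique counts are therefore uncertain. With a minimum of 1 count 4 of the 6 were past the test toward replicate 2. Apart from Mir199b, all genes of the mesenchyme list are also on the chondrogenesis list, so these lists are not separate observations. The epithelium list, led by Mir203, held 6.35% and 6.33%, with a median log2 ratio of 0.42. Of its 7 genes 5 were higher in replicate 2, against the same 30.3%, and 50.0% at 1000 CPM or more. Its median mean level was 6993 CPM, so the share of 50.0% is the nearer background. Mir203 (-0.49) and Mir205 (-0.11) were higher in replicate 1. Mir126a of endothelium held 2.58% in replicate 1 and 2.39% in replicate 2. The summed shares of mesenchyme and epithelium were close in the libraries, while most of their genes were higher in replicate 2 and the leading gene of each was higher in replicate 1. Their part in the members' differences was not tested.

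Per count of the summed mesenchyme list, most of which is Mir214 and Mir143, Mir140 had 0.408 counts in replicate 1 and 0.486 in replicate 2, and Mir455 had 0.0406 and 0.0332. Per count of the summed striated muscle list, Mir455 went the other way, with 2.97 in replicate 1 and 4.02 in replicate 2. The blood list took 0.0587% and 0.0662%, led by Mir223, with 5 of 6 genes matched. Of its 5 tested genes, 3 were higher in replicate 2 (against 30.3% of all tested genes) and 0 higher in replicate 1. The other 2, among them Mir223 (log2 ratio -0.05), did not pass, and the median log2 ratio was 0.42. The striated muscle list took 0.0622% and 0.0385%, led by Mir206, and the neural list 0.0324% and 0.0309%, led by Mir137. In each of the last 2 lists 6 of 7 genes were matched and 3 had no count in either library, namely Mir1a-1, Mir133a-1 and Mir133a-2 of muscle and Mir124a-1, Mir124a-3 and Mir9-2 of neurons. These are encoded at several loci, so a count of 0 does not limit their level. The striated muscle sum, mostly Mir206 with 2600 counts in replicate 1 and 1810 in replicate 2, moved most with the library, in the direction of Mir455. Of its 3 tested genes, Mir206 was higher in replicate 1, Mir208b was higher in replicate 2 (log2 ratio 0.66) and Mir133b did not pass; the part of this list in the results was not tested.

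Among miRNA genes that lie in a host gene on the same strand, Mir140 was again near the top. Of the 360 tested genes, 160 were intronic in a host, 84 overlapped a host exon in at least 1 transcript, 90 lay between genes and 26 lay only opposite a gene. Mir140 counts here as exonic because of the retained-intron transcript, and Mir455 as intronic. Among the 244 hosted genes Mir140 ranked 12 and Mir455 ranked 59, above 95.1% and 75.8% of them. The median hosted gene stood at 102 CPM, against 113 CPM for all tested genes.

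Reads on the strand opposite to the members were nearly absent. Mir140 had 0 opposite-strand counts in replicate 1 and 1 in replicate 2, and Mir455 had 0 in both, within the 3 counts that a count of 0 allows. The members' counts were therefore all but the same with both strands together. Mir497b, which shares the miR-140-3p seed, had 4922 opposite-strand counts in replicate 1 and 5886 in replicate 2, against its 1 and 4 same-strand counts. Those opposite-strand reads are not reads of miR-497b.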

How the data were processed

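The deposited values are whole-number read counts per miRNA gene, made by the authors with the mm10 genome and GENCODE M4 annotation, per the labels and the description files. Which aligner, trimming and counting tool were used is not given in the sources used here. The files have no header; the columns were read as both strands, same strand and opposite strand, since the first equalled the sum of the others (0 exceptions among 1973 genes), and 4 lines of read classes were left out of totals. Names and positions came from GENCODE M21 on GRCm38 (1894 identifiers matched, 79 did not).

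Levels are CPM of the same-strand gene total. Library sizes were scaled by TMM computed over all miRNA genes counted (edgeR 4.0.16, R 4.3.3). Genes with at least 10 counts in both libraries were then compared in an exact binomial test, two-sided, with Benjamini-Hochberg adjustment at 0.05. The binomial test was tried on simulated counts with known changes and counting error only. The dispersion estimate was tried on simulated counts with a known spread. The former counts held no spread between libraries beyond counting error, so they do not show the test's error rate on these data. Alternatives were the both-strand column, other totals, DESeq2 1.42.0 size factors, count minimums of 1 and 100, a pseudocount of 5 in place of 0.5 for the nearest genes, and leaving out each library. The ratio per hairpin length and the limit of 1000 CPM were chosen after the data were seen. The members and lists were chosen with earlier results of these data known. Genes were named by rule: the members, 3 neighbours on each side in rank, the 3 nearest over both libraries, genes sharing a seed or a host, the 6 highest and the 3 most extreme list genes in each direction, and the leading gene of each marker list.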

Additional observations from a re-analysis of the deposited data

How the results depend on the processing

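The directions of both members between the libraries, their adjusted p under 0.05 and the direction of the ratio change held under every alternative run for them: log2 ratios ranged from 0.29 to 0.32 for Mir140 and from -0.25 to -0.22 for Mir455, the weakest for Mir140 and the strongest for Mir455 with plain totals. The number of genes past the test ranged from 178 to 208. With all reads as the total, the mean fell to 9107 CPM for Mir140 and 749 CPM for Mir455, by construction. Among hosted genes the percentile of Mir140 was 97.0 with a minimum of 1 count and 93.1 with a minimum of 100, and that of Mir455 was 85.2 and 65.9, because more or fewer low genes enter. Leaving out a library gave 18603 to 22710 CPM for Mir140, 1550 to 1849 CPM for Mir455, a ratio of 10.1 to 14.7 and percentiles of 95.1 to 95.1 for Mir140 and 74.6 to 77.0 for Mir455. With introns only, Mir140 has no value, since it overlaps an exon of 1 transcript. The tests between the libraries need both, so neither could be left out there. No paired analysis was possible because both libraries belong to 1 group. Depth did not limit either member, while the number of libraries did.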
